A study of Sus scrofa with 20 samples.

Results

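Repeated brief closure of a coronary artery, the protocol labelled RCO, was examined for how much gene expression differed among the 5 female pigs that received it. The RCO arrays were picked by their titles and are 5 of the 20 heart arrays of the series, 1 array per pig. All 23999 probe sets other than the 124 control spots were compared. In each RCO episode the artery was closed 2 times for 10 min, with reflow of 10 min after each closure, and 6 episodes followed each other at intervals of 12 h. The 5 control pigs had a sham operation. The 5 SWOP pigs had 1 such episode, with 24 h of reperfusion according to their labels. The 5 RCS pigs had 6 spells of low-flow ischemia of 90 min each, also 12 h apart. All were untreated before the experiment. Neither the time from the last episode to sampling in RCO and RCS nor the age, the breed or the sampled part of the heart wall is stated in the sources used here.

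Heart muscle that meets ischemia and reflow is known to make cytosolic chaperones of the heat shock family, which refold or hold damaged proteins. Where injury follows, macrophages clear debris and fibroblasts lay down extracellular matrix. Mitochondrial enzymes of fatty acid oxidation and of the respiratory chain supply most of the energy of the healthy muscle. Spread is used here for the standard deviation (SD) of a transcript's log2 signal over the 5 arrays of 1 group. It holds differences between animals, between tissue pieces and between measurements, which cannot be told apart with 1 array per pig. In whole tissue, fewer cells of a type and less RNA per cell cannot be told apart either.

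Sarcomere and calcium handling genes, the defining transcripts of heart muscle, averaged log2 13.01 to 13.30 on the RCO arrays, where all genes averaged 8.10 to 8.18. Array medians over the series lay between 6.75 and 6.82, no pair of arrays held identical values, and the number of arrays limits the precision. Some RCO arrays stood apart. RCO replicate 1 had an average spike-in signal (foreign transcripts added to each sample) of log2 11.09, against 10.52 to 10.65 on the other RCO arrays, and SWOP replicate 1 had 10.91. For actin, the log2 signal of the 3' spots less that of the 5' spots, which grows as RNA breaks down, was 0.78 and 0.79 on RCO replicates 2 and 3 and 1.12 to 1.69 on RCO replicates 1, 4 and 5. It was 1.24 to 1.96 in control, 1.22 to 1.70 in SWOP and 0.51 to 0.73 in RCS. For GAPDH the order differed, with the highest RCO value on replicate 2 at 0.08 and the lowest on replicate 1 at -0.23. For EF1a the RCO values lay between -0.14 and 0. The part of these properties in the results was not tested. Counts for the main gene lists are also given without RCO replicates 1, 2, or 2 and 3.

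RCO hearts had the widest spread of the 4 groups by the median SD. The median SD over all probe sets was 0.218 in RCO, against 0.143 in control, 0.126 in SWOP and 0.154 in RCS, so that the RCO value was 1.52, 1.72 and 1.41 times theirs. An SD above 0.5 was found for 1774 probe sets in RCO, against 556 in control, 251 in SWOP and 444 in RCS. Above 1 there were 163 in RCO, against 80, 33 and 37 in the same 3 groups. RCO had the largest SD of the 4 groups for 13732 probe sets (57.2%). The excess was larger for bright transcripts: in the brightest of 3 equal classes of signal the RCO median was 1.77 times that of control, and in the dimmest 1.35 times. The wider spread was thus a property of a large part of the measured transcripts and not of a short list.

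Spread was tested for each probe set by fitting the absolute deviations of the arrays from their own group mean with limma. The threshold was an adjusted p of 0.05 (Benjamini-Hochberg, over all probe sets). On simulated data 21.7% to 28.3% of the calls were false, so passing is not error-controlled at 0.05 here or below. Against control, 710 probe sets passed (2.96% of those tested), 675 of them wider in RCO (2.81%) and 35 narrower (0.146%). Against SWOP, 1109 passed (4.62%), 1085 wider (4.52%) and 24 narrower (0.1%), and against RCS 94 passed (0.392%), 87 wider (0.363%) and 7 narrower (0.0292%). Set against the mean deviation of the other 3 groups, 2023 passed (8.43%), 2011 wider (8.38%) and 12 narrower (0.05%). These counts depended on how a deviation was defined. With deviations from the group median none of the 4 comparisons called a probe set in limma, while 1634, 1998, 1030 and 2604 had an unadjusted p below 0.05. They also depended on single hearts. In the order control, SWOP, RCS and mean of the others, 181, 359, 72 and 956 probe sets passed without RCO replicate 2, and 1063, 1407, 390 and 1786 without RCO replicate 1. Without RCO replicate 4 there were 2496, 3505, 1586 and 4447, and without RCO replicates 2 and 3 there were 1178, 1676, 971 and 2084. Leaving out arrays also changes the test, since fewer deviations then share 1 mean. With 3 RCO arrays the median difference from RCS was 0.0292, against 0.0528 with all arrays, although more probe sets passed. Counts without replicates 2 and 3, here and for the lists below, are therefore not comparable with those from all arrays. With only the 2 groups of a comparison in the fit, 0, 11 and 0 passed in limma against control, SWOP and RCS, with 3729, 4588 and 2649 at an unadjusted p below 0.05.

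The same question was put to whole arrays, each summarised by the median of its absolute deviations over all probe sets. RCO replicates 1 to 5 lay 0.190, 0.201, 0.132, 0.112 and 0.177 from their group mean, a mean of 0.162 ± 0.0386 (SD, n = 5). Control arrays lay at 0.107 ± 0.0057, SWOP arrays at 0.0926 ± 0.0174 and RCS arrays at 0.115 ± 0.0194 (SD, n = 5 each). RCO replicates 1, 2, 3 and 5 lay above every control array and every SWOP array, and replicate 4 lay within the range of the controls. The difference from control was 0.0550 and that from SWOP 0.0698 (two-sided exact permutation p = 0.0159 for each, adjusted over 3 comparisons 0.0238). The difference from RCS was 0.0474 and did not pass (exact permutation p = 0.0794). The 5 deviations of a group are taken from a mean they share and are not independent, so these p-values are approximate. With the group median as centre the exact permutation p was 0.127 against control and 0.0873 against SWOP, and without control replicate 5 it was 0.0556 against control.

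**Figure D1:**
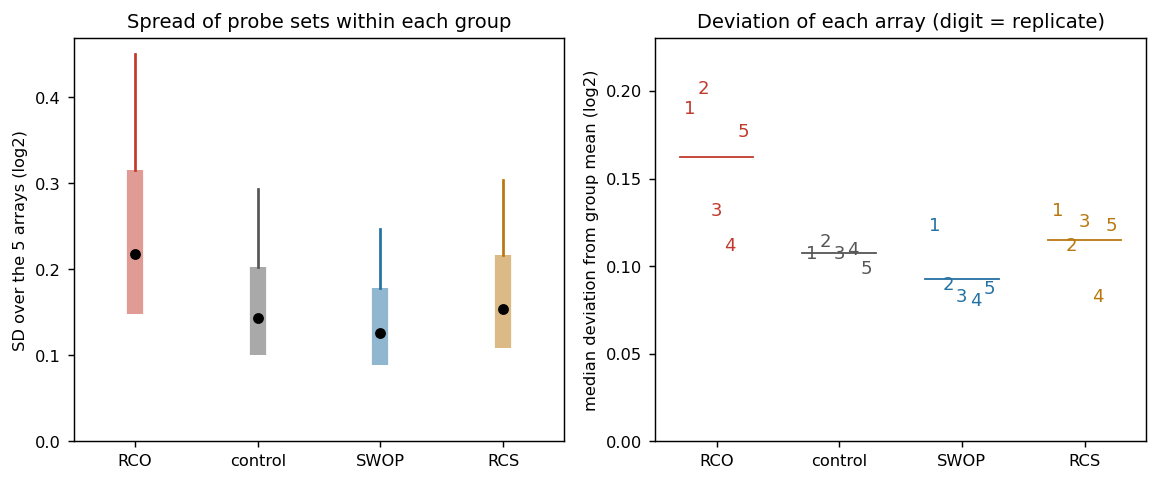
Left, SD of log2 signal over the 5 arrays of each group for 23999 probe sets, with the median as a dot, the quartiles as a box and a line up to the 90th percentile. Right, the median absolute deviation of each array from its group mean in log2 units, with the replicate number as the symbol and the group mean as a line; RCO replicates 1, 2 and 5 lie above all arrays of the other groups.

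Most of the RCO spread ran along 1 direction. The first principal component of the 5 RCO arrays held 57.3% of their variance, against 36.7% in control, 38.0% in SWOP and 40.3% in RCS when each group was taken alone. Replicates 2 and 3 had scores of 50.54 and 22.56, and replicates 1, 4 and 5 of -39.21, -8.53 and -25.36. The second component, with 22.5%, set replicate 1 at 32.17 apart from replicates 4 and 5 at -13.41 and -28.52. The first component thus graded the RCO hearts from replicate 2 down to replicate 1, with replicates 2 and 3 on the positive side. It was not a clean split: the median SD was 0.120 for replicates 2 and 3 as a pair, and 0.120 for replicates 3 and 4.

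The arrays were also placed on the line that joins the mean of the control arrays, set to 0, and the mean of the RCS arrays, set to 1. This line was drawn without RCO or SWOP data. RCO replicates 1 to 5 stood at 0.25, 0.88, 0.76, 0.39 and 0.20. Control arrays stood at -0.10 to 0.08, SWOP arrays at 0.15 to 0.26 and RCS arrays at 0.78 to 1.21. Replicate 2 thus lay inside the RCS range and replicate 3 just below it, while replicates 1 and 5 lay inside the SWOP range. The line held 26.3% of the RCO sum of squares, against 2.49% in control, 1.56% in SWOP and 15.6% in RCS. After it was removed the median SD was 0.188 in RCO, against 0.140 in control, 0.126 in SWOP and 0.144 in RCS. RCO replicates 1, 4 and 5 by themselves had a median SD of 0.181. Both RCO medians lay above those of the other groups. The second rests on 3 arrays, and a median SD depends on the number of arrays. How far the position along this line or replicates 2 and 3 account for the wider spread was not tested.

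**Figure D2:**
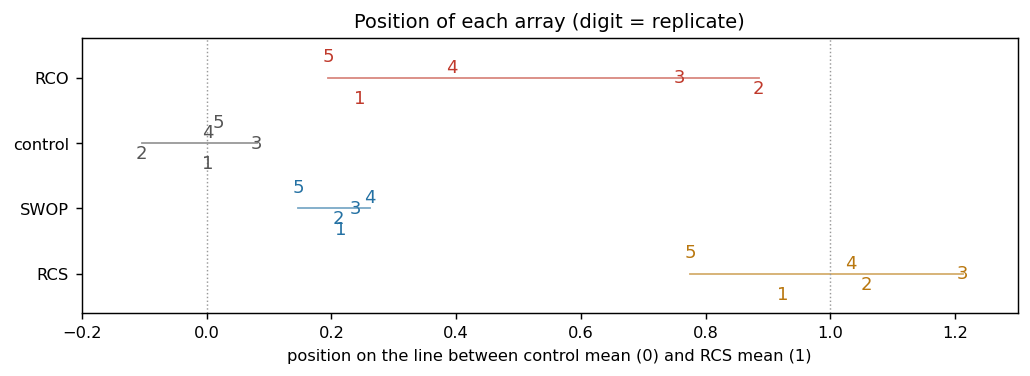
Position of each of the 20 arrays on the line from the control mean (0) to the RCS mean (1), 1 row per group, with the replicate number as the symbol. RCO arrays run from 0.20 to 0.88, and SWOP arrays from 0.15 to 0.26.

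To see which genes varied together, each of the 611 genes with a symbol that is not a locus name, a mean signal above the 30th percentile (log2 5.48) and an RCO SD of 0.5 or more was split at the widest gap between its 5 ordered RCO values. Replicates 2 and 3 formed the high side for 188 of them (30.8%). Replicate 2 alone was high for 104, replicate 1 alone was low for 104, replicate 1 alone was high for 39 and replicate 2 alone was low for 31.  At the same SD the commonest pattern elsewhere was replicate 4 alone in control, with 47 of 192 genes, and the commonest in SWOP and RCS held 9 of 70 and 22 of 138. At an SD of 1 or more, replicates 2 and 3 were high for 28 of 62 genes in RCO (45.2%), and replicate 4 alone was high for 15 of 31 in control (48.4%), so a dominant pattern was not particular to RCO. Where a variable gene had another measurable probe set, its highest RCO array was the same for 122 of 176 genes. At an SD of 1 or more it was the same for 10 of 18. Replicate 2 was the highest array for 369 of the 611 genes (60.4%), which by itself makes such matches common.

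Genes with the largest SDs followed the first of these patterns most often. Of the 62 named genes with an RCO SD of 1 or more, replicate 2 was the highest array for 46, and replicates 2 and 3 were the 2 highest for 52. Their median SD was 1.20 in RCO, and the median of their pooled SD in the other 3 groups was 0.42. The spread test passed 43 of them as wider than the mean of the other groups, where 759 of 6765 genes (11.2%) passed in all. These genes were taken for their RCO spread, so that count is a description.

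CXCL14, a chemokine that attracts monocytes and dendritic cells, had the largest RCO SD of all genes. Its log2 signal was 5.23, 11.73, 9.38, 7.17 and 6.63 on RCO replicates 1 to 5. It was 4.90, 5.01, 6.21, 5.55 and 4.72 on the control arrays, 5.52, 5.06, 5.32, 5.92 and 5.30 on the SWOP arrays, and 10.04, 10.89, 10.19, 9.87 and 8.98 on the RCS arrays. Replicate 1 lay within the control range and replicate 2 above every RCS array. The lowest RCO value is below the 30th percentile of all probe sets (log2 5.48), so no fold is given. The SD was 2.55 in RCO, against 0.61 in control, 0.32 in SWOP and 0.69 in RCS. The mean absolute deviation exceeded that of the other groups by 1.82 ± 0.34 (SE, limma adjusted p = 0.00462). It passed against control (limma adjusted p = 0.0335) and SWOP (limma adjusted p = 0.0163) but not RCS (limma adjusted p = 0.0623).

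Macrophage and monocyte markers spread as a group. Their median SD was 0.63 in RCO, against 0.31 in control, 0.27 in SWOP and 0.26 in RCS, while over all genes it was 0.243, 0.146, 0.125 and 0.165. Of 19 measured markers 9 passed as wider than the mean of the other groups (47.4%, against 11.2% of all genes), namely CD14, CD163, CTSS, FCER1G, GPNMB, ITGB2, LAPTM5, LGALS3 and TYROBP, and none as narrower. Replicates 2 and 3 were both above the other 3 RCO arrays for 14 of 19 markers, against 1410 of 6765 genes. Relative to the control mean the list stood at 0.36, 2.16, 1.74, 0.99 and 0.77 on RCO replicates 1 to 5, and at 1.48 to 1.95 on the RCS arrays. Without replicate 2 the count was 3 of 19 (ITGB2, LAPTM5 and LGALS3), where 334 of all genes (4.94%) passed. It was 8 without replicate 1 (657 of all genes, 9.71%) and 3 without replicates 2 and 3 (747, 11%). With all arrays, 4, 5 and 0 of the 19 passed in limma as wider than control, SWOP and RCS taken singly. Of 6765 genes, 275, 437 and 25 passed in these comparisons.

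LGALS3 encodes galectin 3, a lectin that activated macrophages secrete. Its signal was 5.68, 11.05, 10.63, 9.02 and 8.57 on RCO replicates 1 to 5, against 6.22, 6.21, 6.38, 6.47 and 6.12 in control. It was 7.06, 6.13, 6.46, 6.87 and 6.51 in SWOP and 11.72, 11.56, 11.99, 11.25 and 10.40 in RCS. Replicate 1 lay below every control array, and replicates 2 and 3 lay among the RCS arrays. Its deviation exceeded that of the other groups by 1.35 ± 0.36 (SE, limma adjusted p = 0.0274), and against control alone it did not pass (limma adjusted p = 0.0607).

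GPNMB, a membrane glycoprotein of lipid-laden macrophages, had an SD of 1.63 in RCO, against 0.28, 0.51 and 0.62 in control, SWOP and RCS (limma adjusted p = 0.00539 against their mean). ACP5, the tartrate-resistant acid phosphatase of macrophages and osteoclasts, ran 7.10, 10.88, 9.47, 8.21 and 7.90 over the RCO replicates, with replicate 2 above every array of the series (limma adjusted p = 0.00318). SPP1, which encodes the secreted protein osteopontin, ran 9.0, 13.27, 13.60, 12.75 and 12.05, so that replicate 1 stood alone. SPP1 did not pass (limma adjusted p = 0.144), with SDs of 1.85 in RCO and 0.86, 0.96 and 0.35 in control, SWOP and RCS. Markers of lymphocytes, read from 16 genes, were highest on replicate 2 for 12. Of the 16, 2 passed, JCHAIN and PTPRC (12.5%, near the 11.2% of all genes). Without replicate 2, 0 passed in limma (1 wider at an unadjusted p below 0.05, against 1777 of 6765 genes). JCHAIN, the joining chain of secreted antibodies, ran 7.43, 9.99, 8.95, 7.45 and 6.22 in RCO (limma adjusted p = 0.0285).

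Extracellular matrix genes were wide in the same hearts. Their median SD was 0.61 in RCO, against 0.34 in control, 0.21 in SWOP and 0.37 in RCS. Of 35 measured members 14 passed as wider than the mean of the other groups (40.0%, against 11.2% of all genes) and none as narrower. They included the collagens COL1A2, COL5A2, COL6A3, COL4A2 and COL8A1, the cross-linking enzymes LOX and LOXL1, the protease MMP2 and its inhibitors TIMP1 and TIMP2. For 27 of 35, replicates 2 and 3 were both above the other RCO arrays, and replicate 1 was the lowest for 28 of 35. Against the control mean the list stood at -0.22, 1.42, 1.25, 0.51 and 0.36 on RCO replicates 1 to 5, and at 0.88 to 1.43 on the RCS arrays. Without replicate 2 the count was 4 (11.4%, against 4.94% of all genes), COL4A2, COL8A1, LOXL1 and TNC. Without replicate 1 it was 13 (37.1%, against 9.71%), and without replicates 2 and 3 it was 7 (20%, against 11%). With all arrays, 5, 12 and 1 of the 35 passed as wider than control, SWOP and RCS taken singly. Of 6765 genes, 275, 437 and 25 passed in these comparisons.

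TNC encodes tenascin C, a matrix protein that adult heart muscle makes mainly after injury. Its signal was 7.12, 11.87, 11.14, 9.04 and 7.90 on RCO replicates 1 to 5, against 6.22, 6.04, 6.25, 6.07 and 6.59 in control. It was 6.64, 6.68, 7.20, 7.33 and 6.12 in SWOP and 9.76, 11.50, 11.48, 10.59 and 9.92 in RCS. All RCO values lay above the controls, replicate 1 lay within the SWOP range, and replicate 2 exceeded every RCS array. Its deviation exceeded the mean of the other groups by 1.42 ± 0.24 (SE, limma adjusted p = 0.00292). It passed against control (limma adjusted p = 0.00809) and SWOP (limma adjusted p = 0.0146) but not RCS (limma adjusted p = 0.0851).

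FN1, which encodes fibronectin, ran 9.72, 13.98, 13.36, 11.79 and 11.48 in RCO, where controls held 9.70 to 10.96 (limma adjusted p = 0.00959 against the mean of the other groups). TIMP1 ran 9.33, 13.25, 11.69, 10.02 and 9.94 in RCO (limma adjusted p = 0.0065). COL1A2, a chain of type I collagen, ran 8.65, 12.08, 11.71, 10.19 and 10.21, with an SD of 1.37, against 0.57 in control, 0.52 in SWOP and 0.52 in RCS (limma adjusted p = 0.0445). In each of these 3 genes replicate 1 was the lowest and replicate 2 the highest RCO heart.

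MMP2 and RASSF2 had small SDs in each of the other groups. MMP2, gelatinase A, ran 9.03, 12.33, 10.89, 10.18 and 10.07 in RCO, and 10.03 to 10.59 in control, 10.35 to 10.43 in SWOP and 10.44 to 11.19 in RCS (limma adjusted p = 0.0123). RASSF2, a protein with a Ras association domain, ran 6.76, 9.56, 7.78, 6.66 and 6.78 in RCO and lay between 6.55 and 7.26 on the 15 other arrays (limma adjusted p = 0.00871). All of those 15 arrays lay below replicates 2 and 3. THBS2, the matrix glycoprotein thrombospondin 2, reached 12.41 on replicate 2 and 8.62 on replicate 1 in RCO, and its highest value elsewhere was 11.50 (limma adjusted p = 0.0082).

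Chaperones of the endoplasmic reticulum, which fold secreted and membrane proteins, were wide in the same hearts. Their median SD was 0.44 in RCO, against 0.14 in control, 0.14 in SWOP and 0.25 in RCS, and 6 of 19 passed as wider than the mean of the other groups (31.6%, against 11.2% of all genes: DNAJC3, ERO1A, PDIA3, PDIA4, PDIA6 and SEC61B). For 13 of 19, replicates 2 and 3 were both above the other RCO arrays. PDIA6, a protein disulfide isomerase, ran 10.00, 11.52, 11.67, 10.86 and 10.77 in RCO (limma adjusted p = 0.0191). Without replicate 2, 0 of the 19 passed in limma as wider, where 4.94% of all genes passed. At an unadjusted p below 0.05 there were then 9 wider, against 1777 of 6765 genes. Without replicate 1, 7 passed, against 9.71% of all genes, and without replicates 2 and 3, 3 passed (15.8%, against 11%). With all arrays, 2, 4 and 0 of the 19 passed in limma as wider than control, SWOP and RCS taken singly. Of 6765 genes, 275, 437 and 25 passed in these comparisons. DDIT3, a transcription factor of the stress response of this compartment, ran the other way at 9.49, 7.91, 9.12, 9.42 and 9.44, lowest on replicate 2 (limma adjusted p = 0.572).

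Of 13 smooth muscle and pericyte genes 5 passed as wider than the mean of the other groups (38.5%, against 11.2% of all genes), namely ACTA2, ACTG2, CALD1, SMTN and TAGLN. The list had no common order, with replicates 2 and 3 both above the other RCO arrays for 4 of 13 genes and replicate 2 the lowest for 6. TAGLN, which encodes transgelin, ran 9.64, 11.80, 11.32, 10.14 and 9.79 in RCO (limma adjusted p = 0.011). ACTA2, smooth muscle actin, ran 10.69, 12.97, 12.40, 11.42 and 11.37 (limma adjusted p = 0.0275). Of 30 cell division genes 5 passed (16.7%, near the share of all genes), namely AURKA, CCNB1, CCNB2, CCND2 and RRM1, and replicate 2 was the highest for 18 and replicate 5 the lowest for 17. CCNB1, the mitotic cyclin B1, ran 7.48, 8.96, 8.56, 8.19 and 6.83 (limma adjusted p = 0.0202). Without replicate 1 the count for cell division genes was 1 (CCND2), against 9.71% of all genes. Of 8 nerve and Schwann cell markers 3 passed (37.5%, against 11.2% of all genes: NCAM1, SNAP25 and UCHL1). Replicates 2 and 3 were both above the others for 2 of 8 and both below for 2. NCAM1, a cell adhesion molecule, ran 6.77, 9.11, 8.47, 7.41 and 7.13 (limma adjusted p = 0.00276). Without replicate 2, 2 of the smooth muscle genes, 3 of the cell division genes and 0 of the nerve markers passed in limma. Of all genes 4.94% passed. At an unadjusted p below 0.05, 4, 9 and 4 were wider, against 1777 of 6765 genes. Without replicates 2 and 3, 1, 2 and 0 passed in limma, where 11% of all genes passed. At an unadjusted p below 0.05, 2, 7 and 1 were then wider, against 1756 of 6765 genes. With all arrays, 0 smooth muscle genes, 1 cell division gene and 0 nerve markers passed in limma as wider than RCS alone. Of 6765 genes, 25 passed in that comparison.

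Single enzymes moved with these genes, while antioxidant and glycolysis genes as lists did not. Of 29 antioxidant genes 3 passed as wider (10.3%, near the 11.2% of all genes). Replicates 2 and 3 were both above the other RCO arrays for 9 of the 29 and both below for 6. Of 19 glycolysis genes 2 passed (10.5%), with both replicates above for 3 and both below for 6. HMOX1, heme oxygenase 1, ran 7.67, 10.38, 9.67, 7.89 and 8.43 in RCO, and its control values were 7.45 to 8.55 (limma adjusted p = 0.00474). PRDX1, a peroxiredoxin that reduces hydrogen peroxide, ran 10.62, 11.89, 11.49, 10.51 and 10.44 (limma adjusted p = 0.00282). ENO1, the glycolytic enzyme alpha enolase, ran 10.31, 12.31, 11.82, 11.14 and 10.77, with an SD of 0.80, against 0.16 in control, 0.15 in SWOP and 0.39 in RCS (limma adjusted p = 0.0114). In all 3, replicates 2 and 3 were the 2 highest RCO hearts. PTN, the growth factor pleiotrophin, and RARRES1, a retinoid-responsive membrane protein, had RCO SDs of 1.82 and 1.72. PTN did not pass (limma adjusted p = 0.0544) and RARRES1 did (limma adjusted p = 0.00507).

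**Figure D3:**
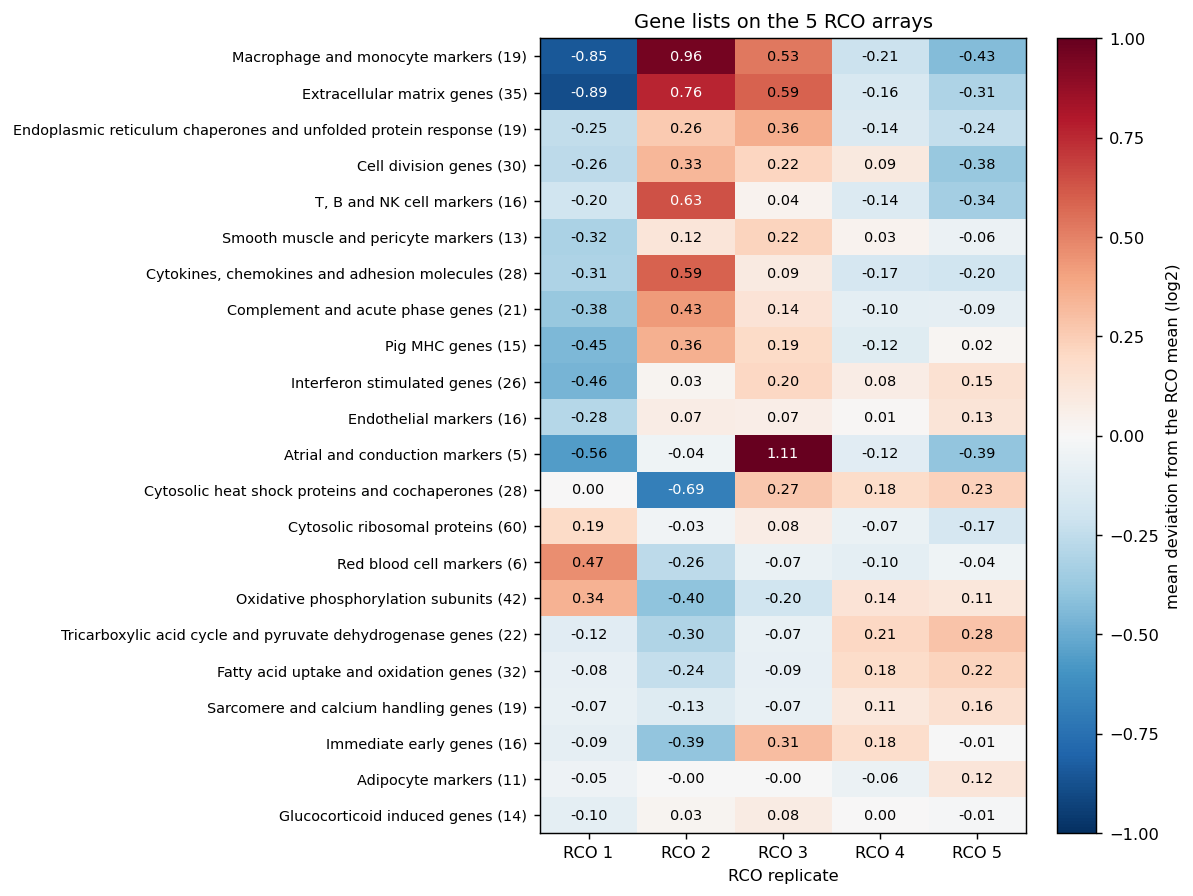
Mean deviation of 22 gene lists from their RCO mean on each RCO array, in log2 units, with the number of measured genes after each name and red for above and blue for below the mean. Macrophage and matrix genes are high on replicates 2 and 3, heat shock genes are low on replicate 2, and oxidative phosphorylation genes are highest on replicate 1.

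The heat shock list split the RCO hearts in another way, with replicate 2 alone low. It was drawn up for cytosolic chaperones and cochaperones, but also holds HSPD1, a mitochondrial chaperonin, and HSF1, a transcription factor. The list stood above the control mean by 0.76, 0.07, 1.03, 0.94 and 1.0 on RCO replicates 1 to 5, and by 0.47 to 0.81 on the RCS arrays. Replicate 2 was the lowest RCO array for 23 of 28 members, against 2202 of 6765 genes. The median SD was 0.34 in RCO, against 0.15 in control, 0.16 in SWOP and 0.17 in RCS, and 6 of 28 passed as wider than the mean of the other groups (21.4%, against 11.2% of all genes: BAG3, DNAJB4, HSF1, HSP90AA1, HSPB8 and HSPD1). Without replicate 2 only BAG3 passed (3.57%, below the 4.94% of all genes). Without replicate 1 there were 7 (25%, against 9.71%), and without replicates 2 and 3 there were 4 (14.3%, against 11%). With all arrays, 2, 2 and 1 of the 28 passed as wider than control, SWOP and RCS taken singly. Of 6765 genes, 275, 437 and 25 passed in these comparisons. The heart that was highest for macrophage and matrix genes was thus the one nearest to control for heat shock genes.

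HSPA6, a strictly inducible member of the HSP70 family, ran 11.88, 9.10, 13.13, 12.85 and 12.77 on RCO replicates 1 to 5. It was 6.62, 6.32, 6.66, 7.09 and 6.46 in control, 7.59, 6.03, 6.41, 6.13 and 6.46 in SWOP, and 12.17, 10.43, 8.19, 11.82 and 10.40 in RCS. All RCO values lay above all control and SWOP values, and the RCS hearts spread about as far as the RCO hearts. The SDs were 1.66 in RCO, against 0.29, 0.62 and 1.57 in control, SWOP and RCS, and the gene did not pass (limma adjusted p = 0.278 against their mean). The lowest HSPA6 value in RCS was on replicate 3, the array farthest along the line from control at 1.21. HSP70.2, the gene of the main inducible HSP70, ran 12.75, 11.37, 13.84, 13.92 and 14.12 in RCO (limma adjusted p = 0.0712), and DNAJB1, its cochaperone of the HSP40 family, ran 12.24, 9.76, 12.37, 11.77 and 12.03 (limma adjusted p = 0.206).

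BAG3, a cochaperone that links HSP70 to selective autophagy and is needed to maintain sarcomeres, was the gene of the list that passed in all 4 comparisons. Its signal was 11.40, 10.74, 12.34, 12.30 and 12.53 on RCO replicates 1 to 5. It was 10.80, 10.78, 10.69, 10.87 and 10.55 in control, 10.57, 10.96, 10.88, 10.96 and 10.83 in SWOP, and 11.74, 11.78, 11.68, 11.89 and 11.69 in RCS. RCO replicate 2 lay within the control range, replicate 1 between control and RCS, and replicates 3, 4 and 5 above every RCS heart. The SDs were 0.76 in RCO, against 0.12, 0.16 and 0.09 in control, SWOP and RCS. The deviation exceeded that of the other groups by 0.61 ± 0.08 (SE, limma adjusted p = 0.00107), and the limma adjusted p was 0.00731, 0.00815 and 0.0171 against control, SWOP and RCS.

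Another pattern set RCO replicate 1 apart at the low end. Interferon stimulated genes were lowest on replicate 1 for 20 of 26 members, and endothelial markers for 11 of 16, against 1791 of 6765 genes. Pig MHC genes were lowest there for 10 of 15. The interferon list had median SDs of 0.39 in RCO, 0.42 in control, 0.23 in SWOP and 0.38 in RCS. Of its 26 members 1 passed (IRF8), 3.85% and below the 11.2% of all genes. Without replicate 2, and without replicates 2 and 3, the gene that passed was OAS1. Of the 16 endothelial and 15 MHC genes 0 passed in limma against the mean of the other groups. At an unadjusted p below 0.05, 5 in each list were wider, against 2127 of 6765 genes. Without replicate 2, 2 endothelial genes passed (ESAM and KDR, 12.5%, against 4.94% of all genes). Without replicates 2 and 3, 4 endothelial genes (CDH5, ENG, ESAM and TEK, 25%, against 11%) and 1 MHC gene (SLA-6) passed. These calls rest on 3 RCO arrays, where replicate 1 alone can set the spread. When only replicate 1 was left out, the RCO SD fell from 0.57 to 0.05 for CDH5 and from 0.36 to 0.09 for ENG. For SLA-6 it fell from 0.79 to 0.16. Replicate 1 was also the array with the highest spike-in signal, and the part of that in these values was not tested.

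OAS1, an interferon-induced synthetase that senses double-stranded RNA, ran 6.61, 9.70, 10.35, 10.06 and 10.43 on RCO replicates 1 to 5. It was 9.48, 9.26, 9.28, 10.12 and 9.88 in control, 9.43, 9.14, 8.73, 9.51 and 9.22 in SWOP, and 10.20, 8.60, 9.35, 9.09 and 8.52 in RCS. Replicate 1 was the lowest of all 20 arrays, and the other RCO hearts lay between 9.70 and 10.43. OAS1 did not pass (limma adjusted p = 0.0591). CDH5, the cadherin of endothelial junctions, was 9.0 on replicate 1 and 10.22 to 10.31 on the other RCO arrays, and PDGFRB, a receptor of pericytes and fibroblasts, was 8.76 and 10.20 to 10.51. SLA-6, a nonclassical MHC class I gene, was 6.81 on replicate 1 and 8.37 to 8.75 on the others. For CDH5 and PDGFRB the limma adjusted p was 0.107 and 0.0521, and for SLA-6 it was 0.133. MX1, another interferon-induced gene, ran 8.54, 10.64, 10.60, 9.87 and 9.64 in RCO (limma adjusted p = 0.365).

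Genes of oxidative phosphorylation ordered the RCO hearts nearly the opposite way to matrix genes. Relative to control the list stood at 0.34, -0.40, -0.20, 0.13 and 0.11 on RCO replicates 1 to 5, at 0.09 to 0.27 in SWOP and at -0.70 to -0.13 in RCS. Replicates 2 and 3 were both below the other RCO arrays for 38 of 42 members, against 1484 of 6765 genes, and replicate 1 was the highest for 32 of 42. The SDs were small but the controls were tighter: the median was 0.33 in RCO, against 0.09 in control, 0.09 in SWOP and 0.26 in RCS. Of 42 members 11 passed as wider than the mean of the other groups (26.2%, against 11.2% of all genes: COX7C, NDUFA1, NDUFA3, NDUFA4, NDUFB11, NDUFB4, NDUFC1, NDUFV1, NDUFV3, UQCR10 and UQCRB).  Without replicate 2 there were 2 (NDUFV1 and NDUFV3), 4.76% and near the 4.94% of all genes. Without replicate 1 there were 10 (23.8%, against 9.71%), and without replicates 2 and 3 there were 3 (COX6A1, NDUFB5 and NDUFV1), 7.14% and below the 11% of all genes. With all arrays, 7, 8 and 0 of the 42 passed in limma as wider than control, SWOP and RCS taken singly. Of 6765 genes, 275, 437 and 25 passed in these comparisons.

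NDUFC1, a subunit of respiratory complex I, ran 12.37, 10.92, 11.44, 11.84 and 11.88 on RCO replicates 1 to 5. It was 11.19, 11.30, 11.35, 11.15 and 11.11 in control, 11.79, 11.82, 11.60, 11.62 and 11.62 in SWOP, and 11.46, 11.16, 11.06, 11.27 and 11.60 in RCS. Replicate 1 was above and replicate 2 below every array of the other groups (limma adjusted p = 0.0245). NDUFA5, another subunit of complex I, ran 11.15, 9.59, 10.14, 10.38 and 10.37 and did not pass (limma adjusted p = 0.271).

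Other enzymes of energy metabolism did not share the high value of replicate 1. Tricarboxylic acid cycle and pyruvate dehydrogenase genes stood at -0.37, -0.56, -0.33, -0.05 and 0.03 relative to control on RCO replicates 1 to 5, and 4 of 22 passed as wider (DLD, IDH2, IDH3G and SDHA), 18.2% against 11.2% of all genes. The count was 3 without replicate 2, 4 without replicate 1 and 5 without replicates 2 and 3, and SDHA was among them each time. With all arrays, 3, 2 and 0 of the 22 passed in limma as wider than control, SWOP and RCS taken singly. Of 6765 genes, 275, 437 and 25 passed in these comparisons. SDHA, the flavoprotein subunit of succinate dehydrogenase, ran 11.88, 11.97, 12.25, 12.70 and 12.72, with replicates 4 and 5 near the control range of 12.71 to 12.87 (limma adjusted p = 0.0264). OGDH, a subunit of the 2-oxoglutarate dehydrogenase complex, was lowest on replicate 1 at 9.60 and highest on replicate 5 at 10.87 (limma adjusted p = 0.0579). Fatty acid uptake and oxidation genes stood at -0.44, -0.60, -0.44, -0.18 and -0.14, and 2 of 32 passed (ACSL1 and CPT1A), 6.25% and below the share of all genes. The count was 1 without replicate 2, 4 without replicate 1 and 1 without replicates 2 and 3. ACSL1, which activates long-chain fatty acids, ran 10.07, 9.99, 10.23, 10.88 and 11.06 (limma adjusted p = 0.0311). Replicates 4 and 5 were therefore nearest to control for these enzymes.

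Genes of cytosolic ribosomal proteins had small SDs with a shared order. Replicate 1 was the highest RCO array for 50 of 60 members, against 1978 of 6765 genes, and replicate 5 the lowest for 45. The median SD was 0.16 in RCO, against 0.07 in control, 0.10 in SWOP and 0.07 in RCS. As wider than the mean of the other groups 1 of 60 passed (RPL15), 1.67% and below the 11.2% of all genes. The count was 2 without replicate 2 (RPL4 and RPL15), 1 without replicate 1 and 17 without replicates 2 and 3 (28.3%, against 11% of all genes). RPL14, of the large subunit, ran 13.38, 12.93, 13.06, 12.81 and 12.64 in RCO, and the next highest signal of the series was 13.16 in RCS. Red blood cell markers were highest on replicate 1 for 5 of 6, and ALAS2, the erythroid enzyme of heme synthesis, was 9.37 there and 8.20 to 8.66 on the other RCO arrays. Of the 6 markers 0 passed in limma, and 0 had an unadjusted p below 0.05.

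Replicate 3 differed from replicate 2 in SLN, NPPA and NPPB. SLN, the calcium pump inhibitor sarcolipin of atrial muscle, was 10.00 on RCO replicate 3 and 6.92, 5.94, 7.0 and 7.0 on replicates 1, 2, 4 and 5. It was 6.09, 6.42, 6.60, 6.65 and 6.20 in control, 7.45, 6.03, 8.75, 7.93 and 6.28 in SWOP, and 7.13, 9.23, 10.91, 9.50 and 7.79 in RCS. The SWOP and RCS hearts were graded over a similar range, and SLN did not pass (limma adjusted p = 0.572). NPPA, atrial natriuretic peptide, was 13.08 on replicate 3 and 10.18 to 11.25 on the others, and NPPB, B-type natriuretic peptide, 12.91 and 10.79 to 11.28. Neither passed (limma adjusted p = 0.672 and 0.636). NPPB varied less among RCO than among control hearts, with SDs of 0.87 and 1.34. Of 13 listed atrial and conduction markers 5 were measured. Replicate 3 was the highest RCO array for 3 of them and replicate 2 for 2. As wider than the mean of the other groups 1 of the 5 passed (20%, against 11.2% of all genes). Whether the sampled piece differed was not tested.

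**Figure D4:**
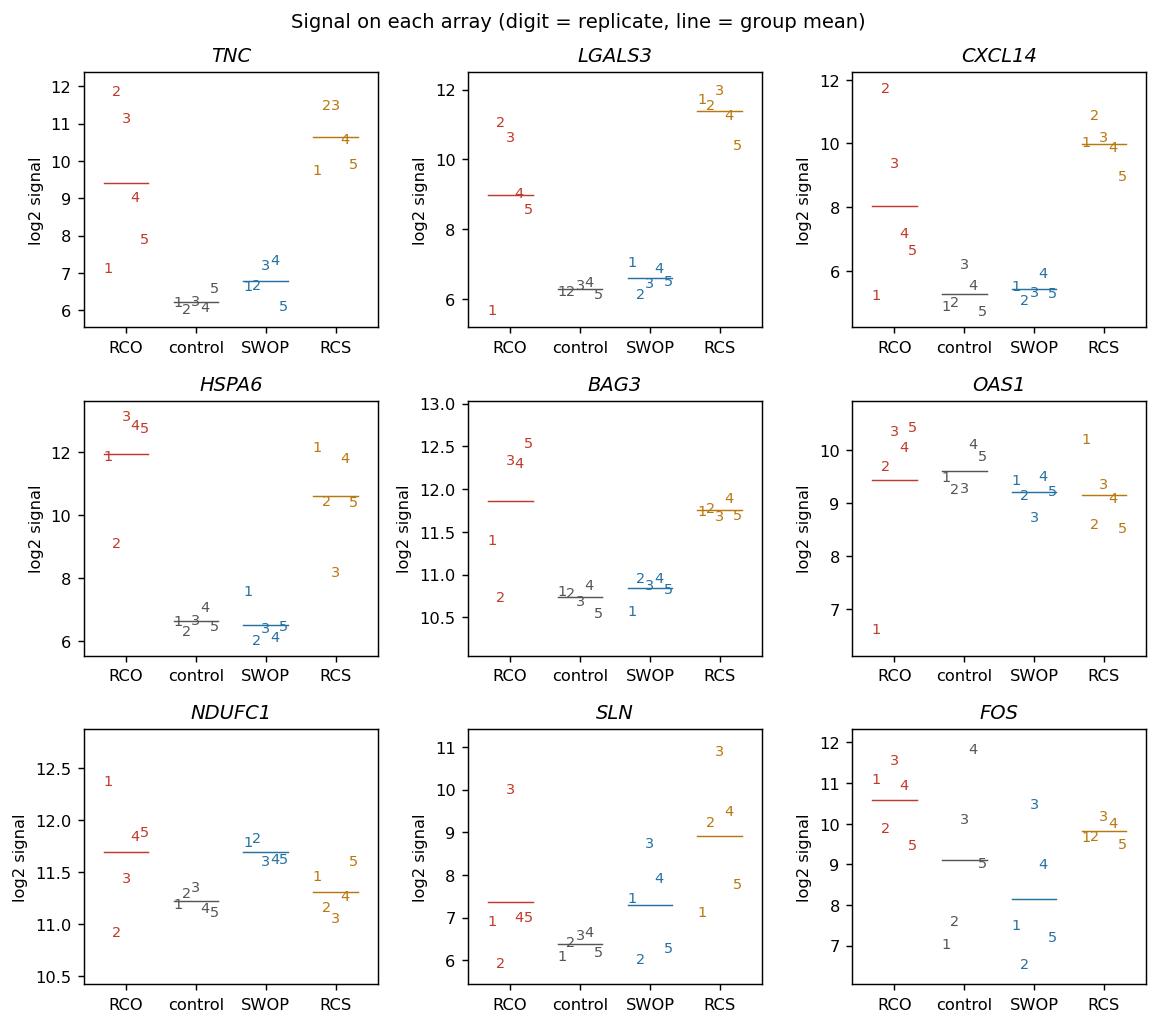
Log2 signal of 9 genes on every array, by group, with the replicate number as the symbol and a line at the group mean; each panel has its own axis range. Replicates 2 and 3 are the highest RCO hearts for TNC, LGALS3 and CXCL14, replicate 2 is the lowest for HSPA6 and BAG3, and replicate 1 the lowest for OAS1.

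Few genes passed as narrower in RCO. As narrower than the mean of the other groups 12 probe sets passed. They include the probe sets that stand for 3 of 6765 genes (0.0443%), ADAT1 and a pair with locus names only. Further genes had a smaller SD in RCO than in control without passing. Immediate early genes, transcription factors induced within minutes of a stimulus, had a median SD of 0.43 in RCO, against 0.82 in control, 0.44 in SWOP and 0.20 in RCS, and 0 of 16 passed in limma in either direction, with 0 at an unadjusted p below 0.05. FOS ran 11.10, 9.88, 11.55, 10.95 and 9.48 in RCO, against 7.04, 7.59, 10.11, 11.82 and 9.02 in control. It was 7.50, 6.55, 10.47, 9.01 and 7.21 in SWOP and 9.67, 9.69, 10.19, 10.02 and 9.49 in RCS. The RCO range lay inside the wider control range (limma adjusted p = 0.592). NR4A3, an orphan nuclear receptor of the same class, had SDs of 0.97 in RCO, against 1.89 in control, 0.96 in SWOP and 1.03 in RCS (limma adjusted p = 0.745).

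CXCL2, a neutrophil-attracting chemokine, was 6.26, 6.28, 6.14, 6.08 and 5.82 in RCO, against 5.87, 5.97, 7.05, 11.18 and 7.74 in control. The highest control heart was replicate 4, and the gene did not pass against control (limma adjusted p = 0.0657). NFKBIA, the inhibitor of the transcription factor NF-kB, had SDs of 0.16 in RCO and 0.77 in control, and DGAT2, which makes triglycerides, 0.18 and 0.87. Control replicate 4 was the highest control heart for both, at 10.95 and 9.11. XAF1, an interferon-induced gene linked to apoptosis, lay between 8.04 and 8.34 in RCO and between 6.40 and 7.90 in RCS (limma adjusted p = 0.0578 against the mean of the other groups). Adipocyte markers had a median SD of 0.23 in RCO, against 0.43 in control, 0.14 in SWOP and 0.23 in RCS, and glucocorticoid induced genes 0.36, against 0.49, 0.29 and 0.22. The adipocyte list stood at 1.09 from the control mean on control replicate 4, and at -0.40 to -0.14 on the other control arrays. SCD, a fatty acid desaturase, was 7.49 to 9.08 in RCO and 6.78 to 11.86 in control, with control replicate 4 at the top.

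Cytokines, chemokines and adhesion molecules were mixed. Their median SD was 0.52 in RCO and 0.45 in control, and 4 of 28 passed as wider than the mean of the other groups (CCL19, CXCL14, CXCL16 and IL18), 14.3% and near the 11.2% of all genes. Replicate 2 was the highest RCO heart for 17 of 28. Without it 0 of the 28 passed in limma (4 wider at an unadjusted p below 0.05, against 1777 of 6765 genes). CXCL16, a membrane-bound chemokine and scavenger receptor, ran 7.34, 9.31, 8.25, 7.79 and 7.32 in RCO (limma adjusted p = 0.0235). ICAM1, which binds leukocytes to endothelium, ran 7.56, 9.64, 8.76, 8.76 and 8.69 and did not pass (limma adjusted p = 0.313).

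**Figure D5:**
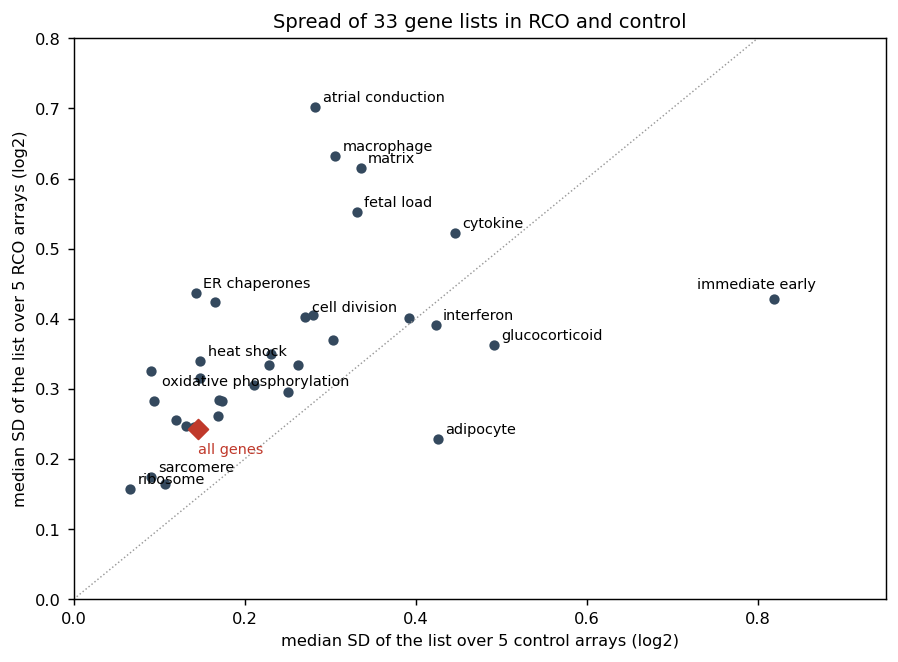
Median SD of the measured members of each of 33 gene lists over the 5 RCO arrays (vertical) and the 5 control arrays (horizontal), in log2 units, with all genes as a diamond and equality as a dotted line. Immediate early, adipocyte, glucocorticoid and interferon genes lie below the line, and macrophage and matrix genes above it at 0.63 and 0.61 in RCO.

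Genes with a narrow range on other arrays also entered the set of wide genes. NAP1L4, a histone chaperone, ran 9.45, 9.55, 9.89, 10.06 and 9.95 in RCO, and the 5 controls lay between 9.74 and 9.77 (limma adjusted p = 0.00632 against control). JAK1, a kinase of cytokine receptors, ran 10.28, 11.38, 11.17, 10.93 and 10.88 in RCO, and 10.79 to 11.25 on the 15 other arrays (limma adjusted p = 0.0483 against their mean). Its RCO SD was 0.41, and 0.23 without replicate 1. Over 5683 named genes the SD in RCO had a Spearman rho of 0.33 with that in control, 0.32 with SWOP and 0.50 with RCS, given as a description across genes, which are not independent and share array signal. Of the 62 genes with an RCO SD of 1 or more, 28 had an SD above 0.5 in RCS, 19 in control and 15 in SWOP.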

How the data were processed

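Porcine Affymetrix arrays, 1 colour and 1 sample each, were read from 20 pig hearts, 5 per group, grouped by their titles. The values are log2 signals as deposited by the authors. The submitters' processing notes name RMA and MAS5 without a version or role, and the values were used as given. Of 24123 probe sets, 124 control spots were left out. Gene names came from the platform annotation, with 10069 probe sets carrying 1 symbol and 198 several. Each of 6765 genes was read from its probe set of highest mean.

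Absolute deviations from the group mean, scaled for group size, were fitted with limma 3.58.1 in R 4.3.3 (4 group means, 16 residual degrees of freedom) and adjusted by Benjamini-Hochberg over 23999 probe sets, at a threshold of 0.05. On simulated data 22%, 25.6%, 28.3% and 21.7% of the calls were false against control, SWOP, RCS and the mean of the others. Few probe sets were made wider there (67, 67 and 66 at 2, 4 and 8 times the SD), and the false share depends on their number. The share of false calls exceeded the threshold aimed at, so the calls are not error-controlled at that level. Array summaries were compared by exact permutation over 252 divisions. Python 3.11.15, numpy 2.4.6, pandas 2.3.3, scipy 1.17.1 and matplotlib 3.10.9 were used.

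The members, the 33 gene lists and the alternatives were chosen with earlier results of these data known. Genes are named by rule: the 15 with the largest RCO SD, the 10 called wider with the largest ratio to the other groups, the 8 quietest, the 3 widest members of each list, and the 5 widest of each of the 3 commonest splits. List members named only because they passed were chosen after their values were seen. Alternatives were other centres, normalizations, filters, a replicate block and single arrays left out. The sources used here do not say how tissue was divided or extracted. No sequence is printed.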

Additional observations from a re-analysis of the deposited data

Results flagged for a closer look

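These values lay far from the others of their group, as the highest or lowest of 5. Of 216 sets of 1 gene in 1 group, 17 were of this kind, 8 of them in RCO. Chance alone gives such a value in about 1 in 20 sets, but the genes were named largely for their RCO spread, so the counts cannot be read against that rate.

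In RCO, replicate 1 was low for OAS1 at 6.61, SLA-6 at 6.81, CDH5 at 9.0 and PDGFRB at 8.76, and its spike-in mean was high at 11.09. RCO replicate 2 was low for DNAJB1 at 9.76 and DDIT3 at 7.91. RCO replicate 3 was high for SLN at 10.00 and NPPB at 12.91.

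In SWOP, replicate 1 was high for the median deviation at 0.123, the spike-in mean at 10.91, HSPA6 at 7.59, DDIT3 at 8.04 and RPL14 at 13.09, and low for THBS2 at 8.64. SWOP replicate 2 was low for FN1 at 10.69 and SWOP replicate 5 for NPPA at 8.81. In control, replicate 4 was high for TIMP1 at 10.28 and SCD at 11.86, and replicate 2 was low for PRDX1 at 10.04.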

How the results depend on the processing

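Counts are given against control, SWOP, RCS and the mean of the other groups, in that order. With deviations from the group median they were 0, 0, 0 and 0 in limma (unadjusted 1634, 1998, 1030 and 2604). With squared deviations they were 0, 0, 0 and 1099 (unadjusted 4825, 5274 and 3989 for the first 3), and with only the 2 groups compared 0, 11 and 0. Without RCO replicates 2 and 3 they were 1178, 1676, 971 and 2084, which rest on 3 RCO arrays and are not comparable with the main counts. With 1 probe set per gene they were 431, 580, 32 and 906. Without RCO replicate 1 and SWOP replicate 1 the count against RCS was 381. Leaving out single arrays gave 181 to 2496, 359 to 3505, 9 to 1586 and 956 to 4447. The lowest counts against control, SWOP and the mean came without RCO replicate 2 and the highest without RCO replicate 4. The count against control was 341 to 411 without any single control array, and the lowest count against RCS came without SWOP replicate 4. Without RCS replicate 4, 26 passed against RCS, 12 wider and 14 narrower. The cause was not tested.

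The array deviation was 0.0447 above control and 0.0581 above SWOP with the group median as centre (exact permutation p = 0.127 and 0.0873), and without control replicate 5 it was 0.0526 above control (exact permutation p = 0.0556). Against RCS it was 0.0935 as a root mean square (exact permutation p = 0.0476), 0.0348 without RCO replicates 2 and 3 (exact permutation p = 0.0357) and 0.0590 without RCO replicate 3 (exact permutation p = 0.0397), and without RCO replicate 4 it was 0.0648 (exact permutation p = 0.00794). Leaving out single arrays gave 0.0449 to 0.0724 against control, 0.0597 to 0.0871 against SWOP and 0.0360 to 0.0648 against RCS.

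With a replicate block the count against RCS was 6, and the others were 717, 1181 and 2167. The paired array differences were 0.0550 and 0.0698 against control and SWOP, with an exact permutation p of 0.0625, the smallest that 5 pairs allow. Correlations of same-numbered arrays ran from -0.179 to 0.155 between RCO and control, -0.0536 to 0.198 between RCO and SWOP and 0.0775 to 0.440 between RCO and RCS, where 3 of 5 arrays correlated best with their own number. Of the RCO and RCS pairs, 4 of 5 were over 0.1 and 1 was not. The labels do not say that a number marks a shared day or litter, and whether the numbers mark a batch was not settled. The number of arrays limits every SD here, and which of RMA and MAS5 made the values is unknown.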
